A study of Mus musculus with 16 samples.

Results

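Cell cycle and DNA replication genes were followed as a set of 45 listed mouse genes in lung RNA. Probe sets were matched by the platform annotation, a probe set being the group of array probes that reads 1 transcript. Only probe sets with a single gene symbol were used, and the brightest over the 16 arrays stood for its gene. This gave a probe set for 44 of the 45 genes among 18193 named genes on the array; Ccnb1, the cyclin B1 gene, had none. A filter on low values (above the array's median on at least 4 of 16 arrays) left 38 of them among 12369 tested genes. Ccne2, Tyms, Cenpe, Aurkb, Kif11 and Kif20a had a probe set but did not pass.

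The arrays compared female BALB/c mice, an inbred laboratory strain, on Affymetrix mouse expression arrays with 1 lung sample each. The 4 groups of 4 were non-pregnant mice given phosphate-buffered saline (PBS), non-pregnant mice given titanium dioxide (TiO2) particles, and the same pair in mice at gestation day 14. TiO2 was given once into the nose at 50 ug per mouse, a particle usually regarded as inert, and RNA was taken 19 h later. The series asks whether pregnancy alters the lung response to such particles. The labels do not say which samples were handled together, so p-values measure the spread between these samples.

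Dividing cells copy their DNA in S phase and separate the copies in mitosis, and the genes for each step are switched on in turn. Near the start of S phase, E2F factors raise the genes for helicase loading and nucleotide supply; later, complexes at CCAAT boxes and the cell cycle genes homology region (CHR) raise the mitotic genes. Adult lung cells divide rarely, so in whole lung these transcripts may come from any small dividing population, such as immature lymphocytes or blood precursors. In a bulk sample, fewer dividing cells and less RNA per dividing cell cannot be told apart.

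The 45 genes fell into 6 roles. Regulators of S phase entry had 9 genes, with Uhrf1 and Ezh2 grouped among them though they are not entry regulators. The replicative helicase and the sliding clamp had 7, and nucleotide synthesis 4. Mitotic entry had 7, chromosomes and kinetochores 12, and the spindle and midzone 6. The first 3 roles are called S-phase members below (18 tested) and the last 3 mitotic members (20 tested).

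Promoter windows of 300 bases, from 250 before to 50 after the start, were found in RefSeq (GRCm38.p6) for 36 of the 45 genes, giving 39 windows. Both strands were searched for the CHR letters TTTGAA, for CCAAT, and for the E2F core TTCGCGC or TTGGCGC. The E2F core on one strand can overlap its match on the other, and TTGGCGC can share its first letters with a CCAAT match on the opposite strand. TTTGAA was in 14 of 20 windows of mitotic members (70.0%) and in 2 of 19 windows of S-phase members (10.5%), against 17.9% of all 32851 windows. CCAAT was in 17 of 20 and 13 of 19 (85.0% and 68.4%), against 37.4% of all windows. The E2F core was in 3 of 20 (15.0%) and 7 of 19 (36.8%), against 3.89%. Windows of members were richer in G and C bases than all windows (median 58.3% against 52.7%). Among the 23513 windows at least as rich as the poorest member window, TTTGAA was in 12.1%, CCAAT in 35.9% and the E2F core in 5.2%. The share of TTTGAA in S-phase members was near that 12.1%. A match is a description of letters and not a shown binding site. These stretches run from 120 bases before to 20 after the start, 5′ to 3′ along the gene. They are shown because the genes recur in the results below and hold examples of each kind of match. Ccnb2, Cdc20, Cdk1 and Top2a are printed with CHR and CCAAT matches in capitals, and Mcm6 with E2F and CCAAT matches in capitals. The Cdk1 window also held 2 E2F core matches, at -178 and -130 relative to the start, outside the printed stretch.
Ccnb2, chr9:70421535-70421674, minus strand: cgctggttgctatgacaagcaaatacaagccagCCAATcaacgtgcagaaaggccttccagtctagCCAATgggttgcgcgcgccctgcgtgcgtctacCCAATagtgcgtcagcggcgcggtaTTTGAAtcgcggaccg
Cdc20, chr4:118437324-118437463, minus strand: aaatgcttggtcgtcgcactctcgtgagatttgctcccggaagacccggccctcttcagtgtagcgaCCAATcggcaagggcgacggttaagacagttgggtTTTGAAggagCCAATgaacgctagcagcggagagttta
Cdk1, chr10:69352893-69353032, minus strand: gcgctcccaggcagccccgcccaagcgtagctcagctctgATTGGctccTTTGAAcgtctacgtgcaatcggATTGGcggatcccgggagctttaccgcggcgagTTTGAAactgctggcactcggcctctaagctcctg
Top2a, chr11:99024170-99024309, minus strand: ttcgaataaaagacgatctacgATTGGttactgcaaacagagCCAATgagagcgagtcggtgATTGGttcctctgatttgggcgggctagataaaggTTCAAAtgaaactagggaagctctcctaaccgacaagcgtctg
Mcm6, chr1:128359686-128359825, minus strand: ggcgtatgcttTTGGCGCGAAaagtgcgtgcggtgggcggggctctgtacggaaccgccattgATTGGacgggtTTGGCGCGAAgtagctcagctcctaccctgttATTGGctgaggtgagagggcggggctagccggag

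The 2 arrays that stood apart came from the group of non-pregnant PBS mice. Prss16, a protease gene of the thymic cortical epithelium, measured 5.73, 5.67, 8.98 and 9.72 on non-pregnant PBS replicates 1 to 4 (log2 of normalised intensity plus 16, the scale of every level here). It measured 5.18 to 6.32 on the other 12 arrays of the remaining groups. Rag1, needed for antigen receptor gene rearrangement in immature lymphocytes, measured 9.16 and 9.66 on replicates 3 and 4 and 4.02 to 5.05 elsewhere. Dntt, which adds bases at receptor gene joins, measured 9.28 and 9.43 there and 4.27 to 5.40 elsewhere. Of 12 thymocyte markers with a probe set, 11 were higher on both arrays than on each of the other 14, as were all 10 T cell markers. The mean of the 12 thymocyte markers was 8.19 and 8.37 on those arrays and 5.65 to 6.31 on the others. Of 5 thymic epithelium markers, 4 were higher on both arrays than on each of the other 14: Prss16, by which the arrays were picked, Psmb11, Ccl25 and Tbata. The remaining marker, Foxn1, the master regulator of thymic epithelium, was level at 4.96 to 5.55 on all 16 arrays. One further array, pregnant TiO2 replicate 2, had a mean of 7 squamous epithelium markers of 5.26 against 8.07 to 9.42 on the other 15, and a mean of 8 striated muscle markers of 7.24 against 9.98 to 10.76. Markers of alveolar type 2 cells, which define lung, averaged 12.27 to 12.44 on every array. The source name and the gestation label of non-pregnant PBS replicate 2 disagree about pregnancy; it was placed by its gestation label, which the sample table in the labels also gives. Results are given with and without the arrays that stood apart.

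The cell cycle genes were high on the same 2 arrays. The mean of the 38 members was 7.29, 7.13, 8.01 and 8.12 on non-pregnant PBS replicates 1 to 4, and 7.17 to 7.33 on the non-pregnant TiO2 arrays. It was 7.15 to 7.42 on the pregnant PBS arrays and 7.41 to 7.63 on the pregnant TiO2 arrays. Replicates 3 and 4 were therefore the 2 highest of 16, and the pregnant TiO2 arrays were the next highest except that their lowest array, at 7.41, lay just under the highest pregnant PBS array. On those 2 arrays, 38 and 36 of 38 members were above their own median over 16 arrays, and 23 members had their highest value on replicate 4 and 8 on replicate 3. On both arrays 28 of 38 members (73.7%) were above all other 14 arrays, against 2.48% of all tested genes. The median excess of the members over the other 14 arrays was 0.65 log2 units, against 0.03 for all tested genes. How far the thymocyte content of these 2 samples sets the excess was not tested.

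**Figure D1:**
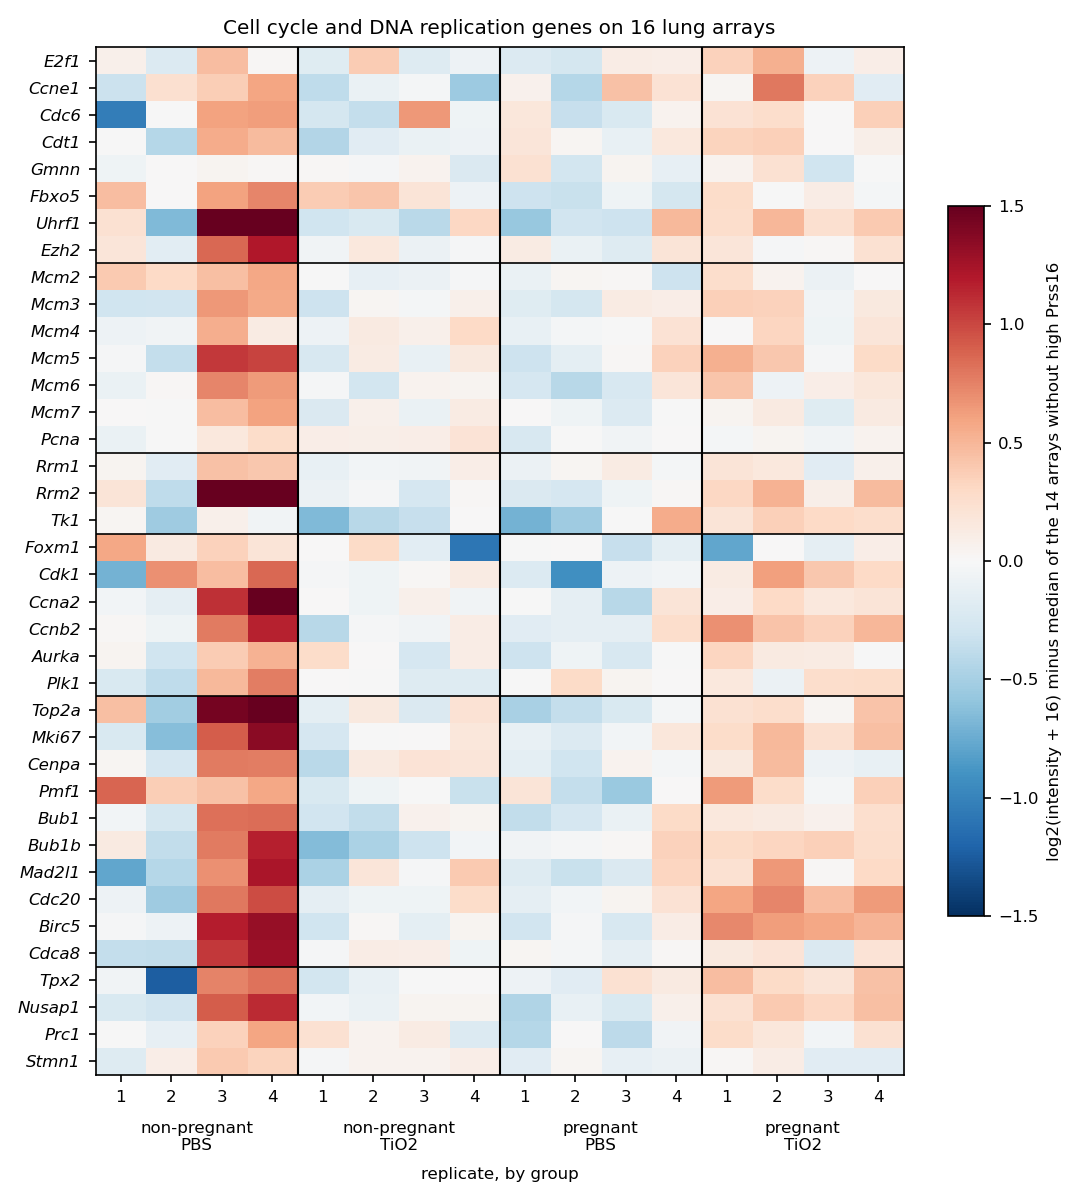
Each row is 1 of the 38 tested members and each column 1 of 16 arrays, grouped by treatment and pregnancy; colour is log2(intensity + 16) minus the median of the 14 arrays without high Prss16, and colours end at 1.5 above and below. Columns 3 and 4 of the non-pregnant PBS group are red for nearly every row (28 of 38 members are above all other arrays there), and the pregnant TiO2 columns are light red for most rows.

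The 3 members with the largest excess had different roles. Uhrf1, which keeps DNA methylation through replication, had an excess of 1.69, Rrm2, a ribonucleotide reductase subunit, 1.67, and Top2a, the topoisomerase that untangles sister chromatids, 1.60. By role, the median excess ran from 0.42 for the 3 nucleotide synthesis genes, Rrm2 among them, to 0.98 for the 10 chromosome and kinetochore genes. Mitotic members had a median excess of 0.83 (17 of 20 above all 14 arrays) and S-phase members 0.54 (11 of 18). The smallest excess was 0.05, for Gmnn, the geminin inhibitor of helicase loading, and 10 of 38 members were not above all 14 arrays on both, among them Pcna, E2f1, Tk1, Cdk1, Foxm1 and Pmf1. Of the 6 members that did not pass the filter, Aurkb, the kinase of the chromosomal passenger complex, measured 6.30 and 6.63 there against 4.88 to 5.93 elsewhere.

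The wider pathway followed in part. Among 98 tested genes from 3 further lists, the median excess was 0.37. On both arrays 42 of them (42.9%) were above all other 14, against 2.48% of all tested genes. The lists differed: 23 of 37 other mitotic genes (62.2%), 16 of 32 replication and repair genes (50%), and 3 of 29 G1 cyclins and cell cycle brakes (10.3%).

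**Figure D2:**
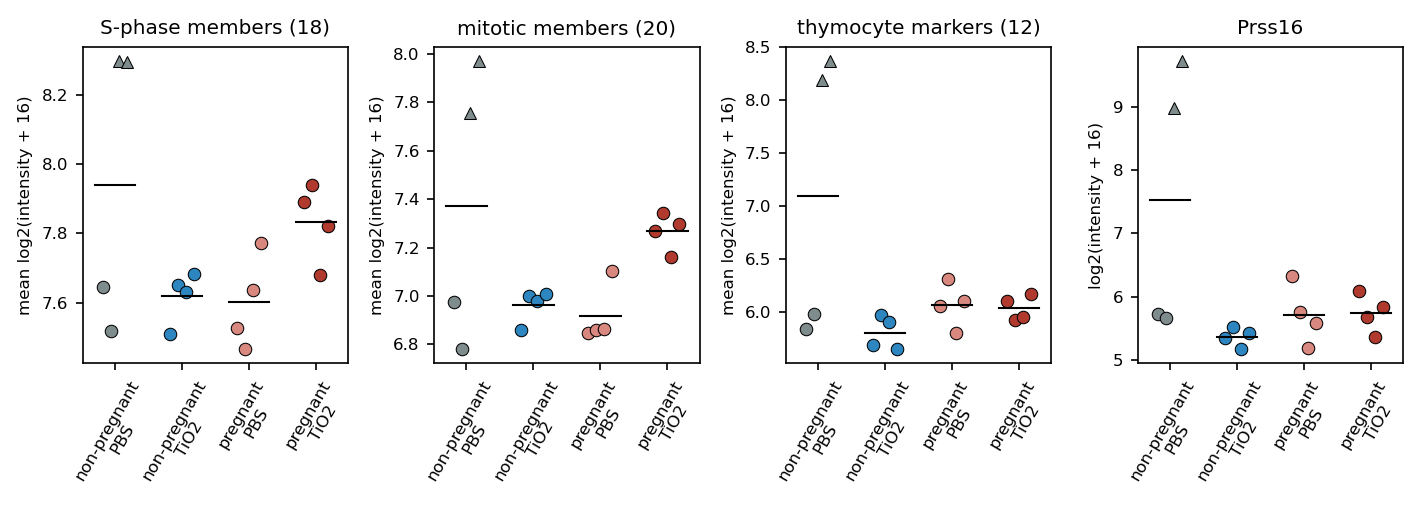
Mean log2(intensity + 16) of the 18 S-phase members, the 20 mitotic members and 12 thymocyte markers, and the value of Prss16, on each array (points; triangles are the 2 high-Prss16 arrays) with group means as bars. The 2 triangles are highest in all 4 panels, and among the other arrays the pregnant TiO2 group has the highest means of members (7.83 for S-phase and 7.27 for mitotic members).

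TiO2 against PBS in non-pregnant mice gave lower values for 37 of 38 members, against 54.5% of all genes, with a median change of -0.33 log2 units against -0.02 for all tested genes. None passed the test (limma, Benjamini-Hochberg adjusted p under 0.05), and 0% of all 12369 genes did. At an unadjusted p under 0.05, 13 members passed, all lower, against 6.31% of all genes lower. All 10 chromosome and kinetochore genes, all 6 mitotic entry genes and all 4 spindle genes lay below 0. Pcna, the sliding clamp that holds polymerases on DNA, was the sole member above 0, at 0.04. Leaving out 1 array moved the median to -0.15 without PBS replicate 4, -0.20 without replicate 3 and -0.51 without replicate 2, the array with conflicting labels.

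Markers of other cells were also lower after TiO2 in non-pregnant mice, and none of them passed the test. B and plasma cell markers had a median of -0.70 (9 of 9 tested lower, 9 at an unadjusted p under 0.05), and their array means were 7.27 to 7.82 after PBS and 6.61 to 7.25 after TiO2. T cell markers had -0.95 (10 of 10 lower), with means of 6.69 to 8.47 and 6.43 to 6.80. Thymocyte markers had -1.12 (7 of 7 lower), with means of 5.84 to 8.37 and 5.65 to 5.97. Fat markers had -1.5 (4 of 4 lower), with means of 9.59 to 10.44 and 7.56 to 9.62. No B and plasma cell or fat marker was above all other 14 arrays on the 2 high-Prss16 arrays. The median excess over the other 14 arrays was still 0.63 for fat markers (0.47 to 0.83), beside 0.65 for the members. It was 0.16 for B and plasma cell markers. The part of these cells in the members' result was not tested.

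Mcm2, a subunit of the replicative helicase, had the smallest p. It measured 8.31, 8.21, 8.37 and 8.49 on the non-pregnant PBS arrays, 7.92, 7.80, 7.82 and 7.90 after TiO2, 7.82, 7.94, 7.94 and 7.61 on the pregnant PBS arrays and 8.18, 7.97, 7.82 and 7.92 on the pregnant TiO2 arrays. The 4 non-pregnant PBS arrays were above all 12 others, replicates 1 and 2 included. These values are of the brighter Mcm2 probe set, with a mean of 8.00 over the 16 arrays against 7.80 for the next. The next probe set gave a smaller change for pregnancy after PBS, as given below. The change after TiO2 was -0.49 ± 0.10 (SE, n = 4 per group, adjusted p = 0.146). With the next brightest probe set where a gene had another, the lowest adjusted p of any member in this comparison, Mcm2 included, was 0.318. Pmf1, a kinetochore subunit, measured 8.31, 7.82, 7.89 and 8.03 after PBS and 7.21, 7.37, 7.44 and 7.11 after TiO2, a change of -0.73 ± 0.17 (adjusted p = 0.275). Both genes had groups that did not overlap, 2 of 38 members lower in this way against 3.11% of all genes, and none was higher in this way, against 2.09%. Bub1b, a spindle checkpoint kinase, measured 6.25, 5.74, 6.89 and 7.28 after PBS and 5.47, 5.64, 5.80 and 6.07 after TiO2, a change of -0.79 ± 0.24 (adjusted p = 0.309). Its PBS values spread over the gap, with replicates 3 and 4 the high ones.

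Without the 2 high-Prss16 arrays the direction was lost. Non-pregnant PBS then held only replicates 1 and 2, and replicate 2 is the array with conflicting labels. The mean of the members was 7.29 on replicate 1 and 7.13, the lowest of all 16 arrays, on replicate 2. It was 7.17 to 7.33 after TiO2. In that fit 25 of 38 members lay above 0 (50.4% of all genes) and 13 below (49.6%), with a median of 0.044. None passed the test, as for all genes (0%). At an unadjusted p under 0.05, 4 members were higher, against 4.88% of all genes: Cdca8 (0.40), Mki67 (0.41), Mad2l1 (0.62) and Tpx2 (0.54). In the other direction 2 were lower, against 4.32%: Mcm2 (-0.40 ± 0.12) and Pmf1 (-0.78 ± 0.22). Groups that did not overlap were then found for 4 members higher, against 8.97% of all genes, and for 2 lower, against 9.46%. Mki67, the Ki-67 gene used to mark dividing cells, measured 7.57, 7.16, 8.71 and 9.16 on the PBS arrays and 7.55, 7.80, 7.80 and 7.97 after TiO2. PBS replicates 1 and 2 lay near or below the lowest TiO2 array, and replicates 3 and 4 lay above the highest.

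Rrm2, Top2a and Mcm6 were also highest on PBS replicates 3 and 4. Rrm2 measured 7.83, 7.25, 9.27 and 9.40 after PBS and 7.55, 7.62, 7.39 and 7.66 after TiO2, a change of -0.88 ± 0.34. Top2a measured 7.73, 6.76, 8.72 and 9.02 after PBS and 7.14, 7.43, 7.07 and 7.50 after TiO2, a change of -0.77 ± 0.34. Mcm6, another helicase subunit, measured 7.78, 7.90, 8.61 and 8.52 after PBS and 7.86, 7.60, 7.93 and 7.92 after TiO2. In all 3 genes replicates 3 and 4 lay above every TiO2 value. PBS replicate 1 of Rrm2 and of Top2a also lay above every TiO2 value and replicate 2 below, and replicates 1 and 2 of Mcm6 lay within the TiO2 range.

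The S-phase regulator E2f1, which drives genes of S phase entry, had overlapping groups. E2f1 measured 6.27, 5.99, 6.66 and 6.21 on the non-pregnant PBS arrays, 6.01, 6.57, 6.00 and 6.11 after TiO2, 5.99, 5.93, 6.31 and 6.29 on the pregnant PBS arrays and 6.54, 6.73, 6.12 and 6.29 on the pregnant TiO2 arrays. Pcna measured 10.96, 11.06, 11.23 and 11.34 on the non-pregnant PBS arrays and 11.16, 11.16, 11.17 and 11.27 after TiO2. Stmn1, which destabilises microtubules, measured 11.28, 11.57, 11.87 and 11.81 on the non-pregnant PBS arrays and 11.46, 11.53, 11.53 and 11.58 after TiO2. In all 3 genes the groups overlapped. Foxm1, a transcription factor of mitotic genes, measured 6.67, 6.22, 6.44 and 6.28 after PBS and 6.10, 6.38, 5.93 and 5.0 after TiO2, a change of -0.55 ± 0.24 (adjusted p = 0.476), and replicates 3 and 4 were not the highest there.

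**Figure D3:**
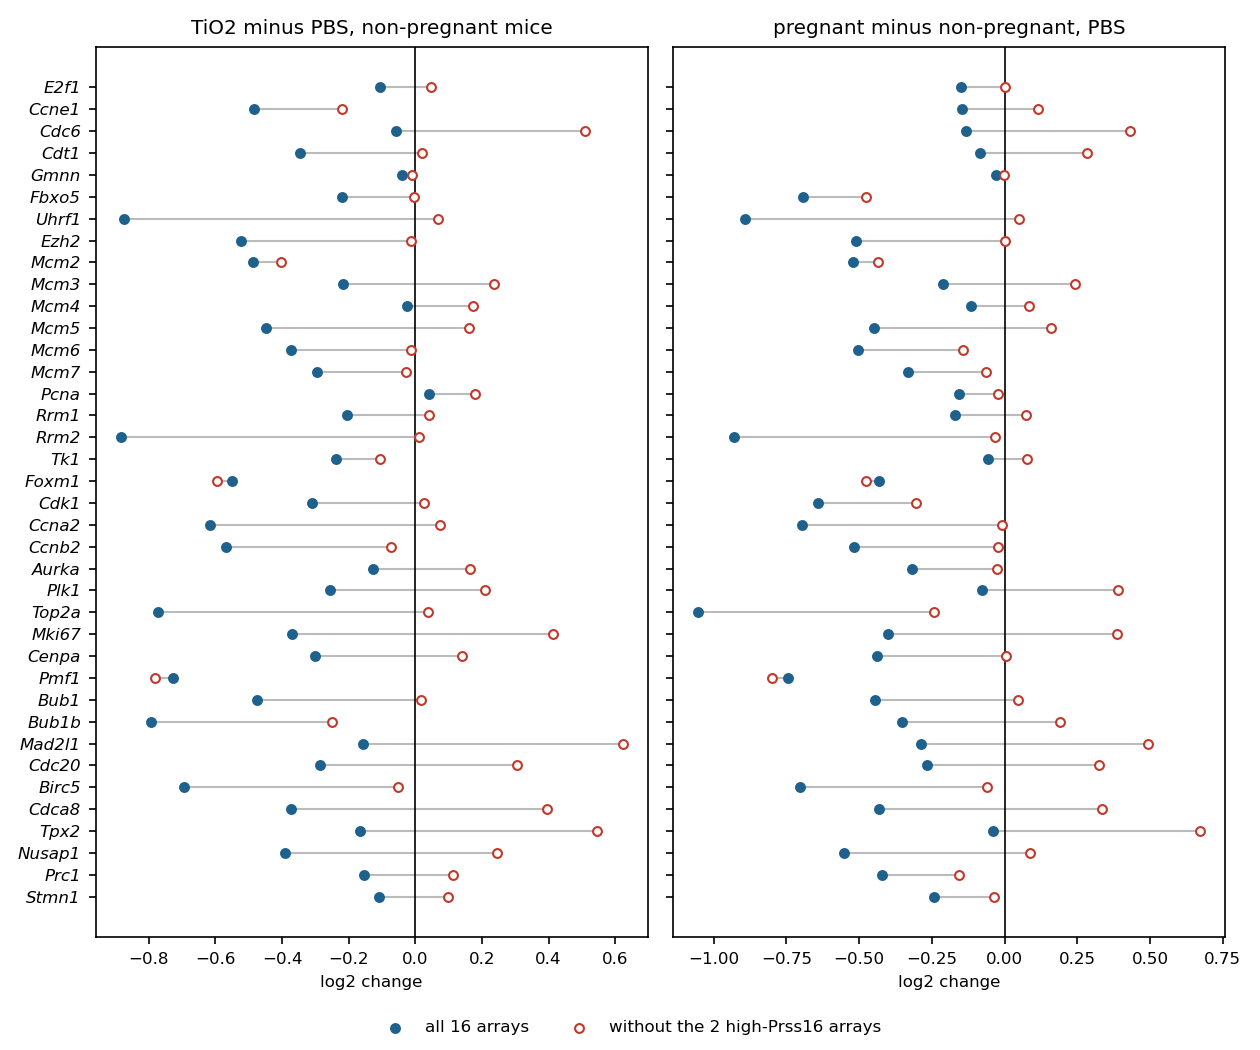
Log2 change of each of 38 members for TiO2 minus PBS in non-pregnant mice (left) and pregnant minus non-pregnant after PBS (right), with all 16 arrays (filled) and without the 2 high-Prss16 arrays (open). Filled points lie below 0 for 37 and 38 members; open points are spread around 0 with medians of 0.044 and 0.0038, and Mcm2 and Pmf1 stay low in both panels.

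TiO2 against PBS in pregnant mice involved neither of the 2 arrays, and gave higher values for 37 of 38 members, against 49.9% of all genes, with a median of 0.29 against -0.00 for all genes. None passed the test, and 0% of all genes did. At an unadjusted p under 0.05, 7 members passed, all higher, against 3.29% of all genes higher: Pmf1, Birc5, Cdk1, Ccnb2, Prc1, Cdc20 and Fbxo5. Groups that did not overlap, with all TiO2 arrays higher, were found for 10 of 38 members, against 2.05% of all genes; none was lower in this way, against 2.17%. Those 10 were Birc5, Cdc20, Mki67, Top2a, Fbxo5, Aurka, Ccnb2, Cdk1, Rrm2 and Nusap1. Mitotic members had a median of 0.35 and S-phase members 0.21.

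Birc5, the survivin gene of the chromosomal passenger complex, measured 6.26, 6.54, 6.31 and 6.66 after PBS and 7.28, 7.18, 7.13 and 7.06 after TiO2 in pregnant mice. All TiO2 arrays were above all PBS arrays, and the change was 0.72 ± 0.25 (adjusted p = 0.723). Cdc20, which activates the anaphase-promoting complex, measured 7.94, 8.03, 8.12 and 8.29 after PBS and 8.67, 8.81, 8.54 and 8.72 after TiO2, a change of 0.59 ± 0.24 (adjusted p = 0.762). Ccnb2, a mitotic cyclin, measured 6.74, 6.78, 6.78 and 7.17 after PBS and 7.60, 7.34, 7.25 and 7.41 after TiO2, a change of 0.54 ± 0.22 (adjusted p = 0.762). Pmf1 measured 7.64, 7.09, 6.89 and 7.45 after PBS and 8.08, 7.72, 7.42 and 7.80 after TiO2, a change of 0.49 ± 0.17 (adjusted p = 0.711), with overlapping groups. Cdk1, the kinase that starts mitosis, measured 6.72, 6.00, 6.85 and 6.88 after PBS and 7.05, 7.54, 7.32 and 7.23 after TiO2, a change of 0.68 ± 0.27 (adjusted p = 0.762). For Cdk1, as for Birc5 and Cdc20, every TiO2 array was above every PBS array.

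Mki67 measured 7.69, 7.59, 7.76 and 7.97 after PBS and 8.08, 8.28, 8.04 and 8.26 after TiO2. Top2a measured 6.79, 6.93, 7.05 and 7.25 after PBS and 7.51, 7.54, 7.31 and 7.71 after TiO2. Rrm2 measured 7.41, 7.39, 7.58 and 7.65 after PBS and 7.95, 8.16, 7.73 and 8.11 after TiO2. In these 3 genes the groups did not overlap, though the highest PBS array and the lowest TiO2 array were close. By role, all 10 chromosome and kinetochore genes lay above 0 (median 0.41), as did all 8 S phase regulators (0.23), all 7 helicase and clamp genes (0.15), all 3 nucleotide synthesis genes (0.45), all 4 spindle genes (0.35) and 5 of 6 mitotic entry genes (0.29). Mcm6 measured 7.63, 7.47, 7.64 and 8.06 after PBS and 8.30, 7.80, 7.98 and 8.05 after TiO2, with overlapping groups. Foxm1 was the sole member below 0, at -0.08. It measured 6.09, 6.10, 5.75 and 5.94 after PBS and 5.31, 6.10, 5.95 and 6.20 after TiO2. Stmn1 measured 11.31, 11.50, 11.35 and 11.39 after PBS and 11.49, 11.59, 11.31 and 11.31 after TiO2, with overlapping groups.

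The spread in the test was estimated over all 4 groups, so the 2 high-Prss16 arrays also entered these p-values. Without them the differences were the same, and the standard errors were smaller for most members but larger for Pmf1, Tk1, Foxm1 and Gmnn. Birc5 rose past the threshold (0.72 ± 0.10, adjusted p = 0.0483), 1 of 38 members against 0.0162% of all genes. Next came Nusap1 (adjusted p = 0.203), Cdc20 (0.242) and Ccnb2 (0.261), and 15 members were higher at an unadjusted p under 0.05, against 3.98% of all genes. Leaving out pregnant TiO2 replicate 2 as well, 34 of 38 lay above 0 with a median of 0.27, and none passed (Birc5 adjusted p = 0.125).

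**Figure D4:**
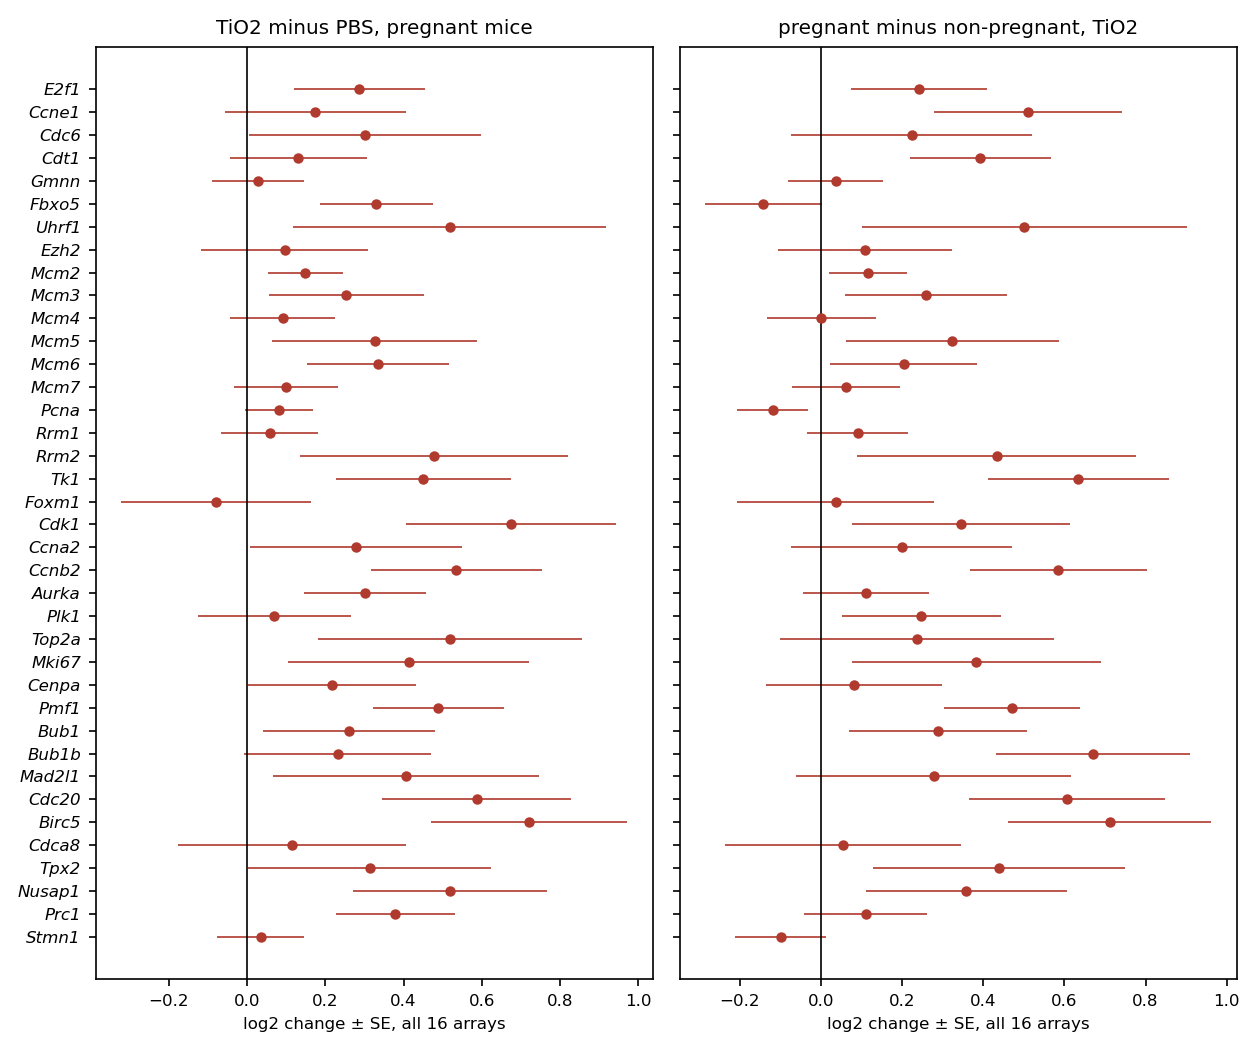
Log2 change ± SE of each of 38 members for TiO2 minus PBS in pregnant mice (left) and pregnant minus non-pregnant after TiO2 (right), from the fit on all 16 arrays. Points lie above 0 for 37 members on the left and 35 on the right.

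The difference of the TiO2 effects, pregnant minus non-pregnant, was above 0 for all 38 members, against 53.3% of all genes, with a median of 0.59 against 0.02 for all genes. None passed the test, and 0% of all genes did; 17 members had an unadjusted p under 0.05, all higher, against 6.5% of all genes higher. Pmf1 (1.22 ± 0.24, adjusted p = 0.232), Mcm2 (0.64 ± 0.14, 0.232) and Birc5 (1.42 ± 0.35, 0.246) had the smallest p-values. With the next brightest probe set where a gene had another, the lowest adjusted p of any member was 0.381. Without the 2 arrays the median was 0.22, 29 of 38 lay above 0 (49.4% of all genes), 6 were higher at an unadjusted p under 0.05 (5.09%) and none passed (0%; lowest adjusted p = 0.219). Leaving out pregnant TiO2 replicate 2 as well, the median was 0.16. In both of these fits non-pregnant PBS held only replicate 1 and replicate 2, the array with conflicting labels.

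Pregnant against non-pregnant mice after PBS gave 38 of 38 members below 0, against 48.2% of all genes, with a median of -0.41 against 0.01 for all genes. The median was -0.21 without non-pregnant PBS replicate 4 and -0.24 without replicate 3. Of these, 3 of 38 fell past the threshold, against 1.04% of all genes called in either direction (100 higher and 29 lower). Mcm2 fell by 0.52 (SE 0.10, adjusted p = 0.0122), Fbxo5, an inhibitor of the anaphase-promoting complex, fell by 0.69 (SE 0.14, adjusted p = 0.0285), and Pmf1 fell by 0.74 (SE 0.17, adjusted p = 0.0455). At an unadjusted p under 0.05, 16 members passed, all lower, against 5.28% of all genes lower. In 4 of 38 (Pmf1, Fbxo5, Mcm2 and Foxm1) the groups did not overlap, all lower, against 2.3% of all genes; none was higher in this way, against 3.46%.

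Fbxo5 measured 7.18, 6.73, 7.32 and 7.45 on the non-pregnant PBS arrays and 6.40, 6.39, 6.66 and 6.46 on the pregnant PBS arrays. The pregnant TiO2 values were 7.0, 6.71, 6.83 and 6.69, above the pregnant PBS values. The excess of the 3 called genes on the 2 high-Prss16 arrays was 0.61 for Fbxo5, 0.49 for Mcm2 and 0.43 for Pmf1, beside a median of 0.65 for the members, all measured over the other 14 arrays. Over the other 2 non-pregnant PBS arrays alone, the excess was 0.43 for Fbxo5, 0.17 for Mcm2 and -0.11 for Pmf1.

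Without the 2 arrays the sign was lost for the members as a whole (20 above 0 against 56.1% of all genes, 18 below 0 against 43.9%, median 0.0038) and none passed, against 2.01%. Non-pregnant PBS then held only replicate 1 and replicate 2, the array with conflicting labels. Mcm2 (-0.44 ± 0.12, adjusted p = 0.0736), Pmf1 (-0.80 ± 0.22, 0.0780) and Fbxo5 (-0.48 ± 0.16, 0.147) kept their direction, the 3 members lower at an unadjusted p under 0.05 (5.94% of all genes). In the other direction 5 were higher (10.1% of all genes): Plk1 (0.39), Tpx2 (0.67), Cdca8 (0.34), Mki67 (0.38) and Cdc20 (0.33). Groups that did not overlap were found for 5 members higher (13.2% of all genes) and 4 lower (8.63%). With the array of conflicting labels counted as pregnant PBS, Fbxo5 and Top2a were the members called, both lower. The probe sets disagreed about size for 2 of the called genes. With the next brightest probe set, the Mcm2 change was -0.23 (adjusted p = 0.769) and the Pmf1 change -0.28 (0.828); the chosen probe sets of both carry suffixes that mark probes shared between transcripts.

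After TiO2, pregnant against non-pregnant mice gave 35 of 38 members above 0, against 55.6% of all genes, with a median of 0.24 against 0.03 for all genes. None passed, against 1.88% of all genes (170 higher and 63 lower). At an unadjusted p under 0.05, 8 members passed, all higher, against 12.8% of all genes higher. Groups that did not overlap were found for 12 members, all pregnant arrays higher, against 9.56% of all genes, and for 1 (Pcna) lower, against 6.18%. The 12 were Birc5, Bub1b, Cdc20, Mki67, Cdt1, Ccna2, Ccnb2, Cdk1, Rrm2, Tk1, Nusap1 and Tpx2.

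Tk1, the thymidine salvage kinase, measured 5.62, 5.87, 5.94 and 6.29 on the non-pregnant TiO2 arrays and 6.48, 6.64, 6.59 and 6.56 on the pregnant ones, a difference of 0.63 ± 0.22 (adjusted p = 0.136). Birc5 measured 6.25, 6.56, 6.41 and 6.59 on the non-pregnant arrays and 7.28, 7.18, 7.13 and 7.06 on the pregnant ones, a difference of 0.71 ± 0.25 (adjusted p = 0.136). Bub1b measured 5.47, 5.64, 5.80 and 6.07 on the non-pregnant arrays and 6.39, 6.44, 6.46 and 6.37 on the pregnant ones, a difference of 0.67 ± 0.24 (adjusted p = 0.140). In each of these 3 genes the pregnant TiO2 values were tight, and the non-pregnant arrays lay below them. Pcna measured 11.16, 11.16, 11.17 and 11.27 on the non-pregnant arrays and 11.04, 11.11, 11.01 and 11.12 on the pregnant ones.

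With the 2 high-Prss16 arrays left out of the spread, 4 of 38 members were called higher, against 3.4% of all genes in either direction: Birc5 (0.71 ± 0.10, adjusted p = 0.00403), Cdc20 (0.61 ± 0.12, 0.0201), Bub1b (0.67 ± 0.14, 0.0228) and Ccnb2 (0.59 ± 0.13, 0.0252). All 4 are mitotic, as are 20 of the 38 tested members: 3 act at chromosomes and the spindle checkpoint and 1 at entry. Among the 8 members at an unadjusted p under 0.05 with all arrays, 5 were mitotic and 3 S-phase.

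**Figure D5:**
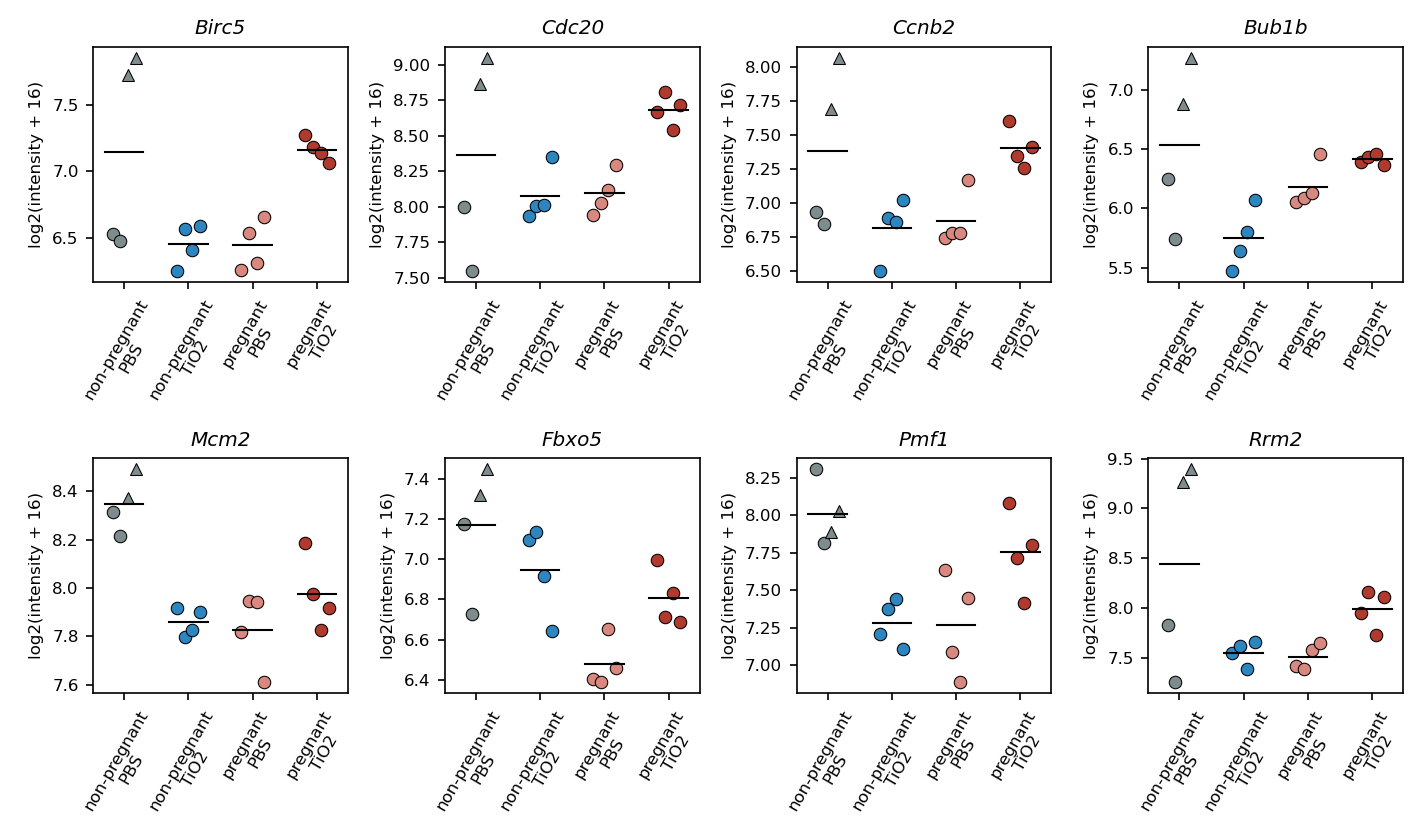
Level of 8 members on each of 16 arrays (points; triangles are the 2 high-Prss16 arrays) with group means as bars. Birc5 and Cdc20 have their 4 pregnant TiO2 points above all 8 points of the non-pregnant TiO2 and pregnant PBS groups, Mcm2 has its 4 non-pregnant PBS points above every other point, and Rrm2 has the 2 triangles as its highest points.

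Markers of other cells were set beside the remaining comparisons, and their part in the results on the cell cycle genes was not tested. Between pregnant and non-pregnant mice after PBS, megakaryocyte and platelet markers had a median of 0.66 (6 of 6 tested higher, 2 called), with array means of 7.02 to 7.21 on the non-pregnant and 7.81 to 8.04 on the pregnant arrays. Of the myeloid progenitor list only Camp, Ngp, Ltf and Chil3 were tested, with a median of 0.74 (4 of 4 higher, 1 called). The called gene was Chil3, which is also on the alveolar macrophage list. Mpo, Elane, Prtn3, Ctsg and Ms4a3 did not pass the filter. Array means of all 9 genes of the list were 6.37 to 6.64 and 6.62 to 7.02. T cell markers had -0.50 (10 of 10 lower) and thymocyte markers -0.87 (7 of 7 lower), none called. B and plasma cell markers had 0.26 (9 of 9 higher, none called) and alveolar macrophage markers 0.33 (5 of 6 higher, Chil3 called). Fibroblast markers had -0.20 (1 of 7 higher, and that 1 called). Of all genes, 1.04% were called in this comparison. Between pregnant and non-pregnant mice after TiO2, 1.88% of all genes were called. B and plasma cell markers had a median of 0.97 (9 of 9 higher, 4 called), T cell markers 0.42 (10 of 10), thymocyte markers 0.36 (7 of 7) and erythroid markers 0.37 (3 of 4). Alveolar macrophage markers had 0.42 (5 of 6 higher, 1 called) and the 4 tested genes of the myeloid progenitor list 0.28 (3 of 4, 1 called). Fat markers had 1.40 (4 of 4, none called), with means of 7.56 to 9.62 and 8.43 to 10.56, and megakaryocyte and platelet markers 0.57 (6 of 6, 1 called), with means of 6.56 to 7.31 and 7.52 to 7.93. Array means ranged over 6.61 to 7.25 on the non-pregnant and 7.63 to 8.13 on the pregnant TiO2 arrays for B and plasma cells, and over 6.43 to 6.80 and 6.97 to 7.26 for T cells. In pregnant mice, TiO2 against PBS gave medians of 0.09 for T cell, -0.00 for thymocyte and 0.16 for erythroid markers (4 of 4), with erythroid levels of 6.71 to 6.95 after PBS and 6.80 to 6.98 after TiO2. The 4 tested genes of the myeloid progenitor list had -0.42 (1 of 4 higher). Squamous epithelium and striated muscle markers, low on pregnant TiO2 replicate 2, had -0.73 and -0.69. For the difference of the TiO2 effects, the medians were 0.67 for B and plasma cell, 0.91 for T cell, 1.23 for thymocyte and 1.34 for fat markers, none called.

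Genes of the wider pathway were compared from the same 3 lists. In pregnant mice, TiO2 against PBS put 72 of 98 tested genes above 0: 35 of 37 other mitotic genes, 27 of 32 replication and repair genes and 10 of 29 G1 cyclins and brakes. Cdkn2b, which inhibits G1 kinases, had 0.40 ± 0.12, and Cdc45 and Gins2, partners of the Mcm helicase, had 0.47 ± 0.15 and 0.66 ± 0.22, and none passed the test. In non-pregnant mice 16 of 98 lay above 0 with all arrays and 67 of 98 without the 2 high-Prss16 arrays, and none passed with either. Pregnant against non-pregnant after PBS called 2 of 98, against 1.04% of all genes. Pola1, the catalytic subunit of DNA polymerase alpha, measured 7.26, 7.18, 7.26 and 7.50 on the non-pregnant and 6.83, 6.73, 6.62 and 6.73 on the pregnant PBS arrays, with no overlap, and fell by 0.57 (SE 0.08, adjusted p = 0.00241). Cdkn1c, an inhibitor of cyclin-dependent kinases, measured 9.17, 9.37, 8.98 and 9.31 against 9.72, 9.76, 10.13 and 9.88 and rose by 0.66 (SE 0.14, adjusted p = 0.0355). Without the 2 high-Prss16 arrays, 1 of 98 was called, lower, against 2.01% of all genes. After TiO2, Tfdp2, a partner of E2F factors, was the sole gene of the 98 called between pregnant and non-pregnant mice, against 1.88% of all genes. Tfdp2 fell by 0.49 between non-pregnant and pregnant mice (SE 0.12, adjusted p = 0.0423), with values of 9.81, 9.78, 9.84 and 9.98 against 9.27, 9.34, 9.49 and 9.35.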

How the data were processed

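Lung RNA from 16 samples in 4 groups of 4 was measured on 16 arrays. The values are intensities on a linear scale that the authors deposited, 45101 probe sets per array; the submitters' processing notes name GCOS, MAS5 and RMA without their roles, so the step that made this table is not known here. The 2% trimmed mean of an array differed up to 1.92 times between arrays. After 64 control probe sets were dropped, values were quantile-normalised, 16 was added as a pseudocount and log2 was taken. Of the remaining probe sets, 34945 had 1 symbol, 932 several and 9160 none. Changes are therefore on the log2(value + 16) scale, which understates changes of low genes; with no count of molecules, the number of arrays limits the precision. Group means were fitted with limma 3.58.1 (R 4.3.3) over all 16 arrays (12 residual df, 5 contrasts), with Benjamini-Hochberg adjustment over 12369 genes; a gene was called at an adjusted p under 0.05. The fit was checked on simulated data with independent normal values and the same spread in all 4 groups. That check does not cover groups of unequal spread, such as the members in non-pregnant PBS. Genes given per array were 12 chosen across the roles plus, in each comparison, the 3 members and 3 pathway genes with the smallest p. The members and lists were chosen with earlier results of these data known. Alternatives are listed in the closing section.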

Additional observations from a re-analysis of the deposited data

Results flagged for a closer look

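In 156 groups of 4 arrays (38 members and the mean of the members, in 4 groups), 4 had 1 array whose gap to the nearest of the others exceeded Dixon's 95% critical value; chance alone flags about 1 in 20 such groups. Pcna measured 11.27 on non-pregnant TiO2 replicate 4, above 11.17 on the next. Ccnb2 measured 7.17 on pregnant PBS replicate 4, above 6.78 on the next. Cenpa, the centromeric histone gene, measured 6.59 on non-pregnant TiO2 replicate 1, below 7.13 on the next. Cdca8, a subunit of the chromosomal passenger complex, measured 6.67 on pregnant TiO2 replicate 3, below 7.04 on the next.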

How the results depend on the processing

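Without the high-Prss16 arrays, and likewise without all 3 arrays of unlike tissue content, the median change of the members was 0.044 for TiO2 in non-pregnant mice in both settings, 0.22 and 0.16 for the difference of the TiO2 effects, and 0.0038 in both for pregnancy after PBS. The count called was then 1 for TiO2 in pregnant mice without the high-Prss16 arrays, 0 and 0 for pregnancy after PBS, and 4 and 4 for pregnancy after TiO2. For pregnancy after PBS, 0 members were called on values as deposited and with only the groups of the contrast, 1 each without a filter on low values, with the next brightest probe set and with the mean of all kept probe sets, and 5 with array weights. Leaving out 1 array at a time gave 1 to 4 there: 1 without non-pregnant PBS replicate 4, pregnant PBS replicate 2 or pregnant PBS replicate 4, and 4 without non-pregnant PBS replicate 2. For pregnancy after TiO2, 7 members were called with only the groups of the contrast, where 483 of 12369 genes were, and 5 with array weights, where 1505 genes were, against 233 with all arrays weighted equally. The cause was not tested. Values as deposited put the median of all genes at 0.17 for TiO2 in non-pregnant mice and the members at -0.17, so directions there are relative to that shift. Counting the array with conflicting labels as pregnant moved the members' median for TiO2 in non-pregnant mice from -0.33 to -0.51, lowered the genes called for pregnancy after PBS from 129 to 7 and after TiO2 from 233 to 104, and left 36 of 38 members above 0 for TiO2 in pregnant mice. Over all settings, 7 to 295 genes were called for pregnancy after PBS and 21 to 1505 after TiO2. Of 475 alternative values for single genes, 428 kept direction and side of the threshold, 7 came to pass it and 40 no longer passed it, and none that passed reversed. All 40 belonged to Mcm2, Fbxo5 and Pmf1 for pregnancy after PBS, the 3 of these results that passed in the main fit. Most of the 428 were results that did not pass in the main fit and still did not pass. No paired analysis was possible because the labels carry no replicate numbers. The number of arrays per group, 4, limits what small changes can be seen.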
